A study of Mus musculus with 2 samples.

Results

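The motor neuron LIM homeobox genes Isl1, Isl2, Lhx3 and Lhx4 and the homeobox gene Mnx1 were taken by their GENCODE symbols, 5 of 43346 genes in the deposited tables. All 5 were found, and all 5 passed 1 TPM (a transcript share scaled to a fixed total and corrected for length) in both libraries. The libraries were total RNA-seq of neural tube, from which the brain and spinal cord form, taken from healthy B6NCrl mouse embryos of both sexes at 11.5 days. Replicate 1 pooled 109 embryos and replicate 2 pooled 88, biological replicates per the labels, with 10 ng of RNA over 200 bases long and added spike-in RNAs in each. There was 1 group and no treatment. The values below therefore describe levels, transcripts and the difference between the pools, given as replicate 1 over replicate 2, and no p-value is given because 1 library stood on each side.

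Cells leaving the motor neuron progenitor domain of the ventral spinal cord switch on LIM homeodomain factors, and the combination that a cell keeps is known as the LIM code. Isl1 is required for motor neurons to form, Isl2 is its close relative in the same cells, and Lhx3 and Lhx4 act early in motor neurons and stay on in those of the medial column. In motor neurons Isl1 and Lhx3 bind the adaptor Ldb1 together, whereas in V2a interneurons Lhx3 binds Ldb1 without Isl1. Mnx1, also called Hb9, holds back the V2 interneuron program in motor neurons. Isl1 is also known from sensory ganglia, dorsal interneurons, the heart, the limb, the pituitary and the endocrine pancreas, and Mnx1 from the notochord and pancreas, so whole tissue RNA does not assign these transcripts to motor neurons.

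Isl1, a LIM homeodomain factor of newborn motor and sensory neurons (ENSMUSG00000042258.9, chr13:116298281-116309689 on the minus strand of mm10), was the most abundant member. It had 86.02 TPM in replicate 1 and 109.32 TPM in replicate 2, a mean of 97.7 ± 16.5 TPM (SD, n = 2), from 3241 expected counts in replicate 1 and 3954 in replicate 2. That level placed it 1582nd among protein-coding genes by mean TPM. Isl2 (ENSMUSG00000032318.8, chr9:55538672-55546180, plus strand) followed with 28.66 TPM in replicate 1 and 42.04 TPM in replicate 2, a mean of 35.4 ± 9.46 TPM, from 827 counts in replicate 1 and 1230 in replicate 2. Isl1 and Isl2 did not overlap in range, and in both libraries Isl1 stood well above its relative.

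Lhx3 (ENSMUSG00000026934.11, chr2:26200212-26208289, minus strand), which pairs with Isl1 in motor neurons and is also active in V2a interneurons, had 15.27 TPM in replicate 1 and 20.08 TPM in replicate 2. Its mean was 17.7 ± 3.40 TPM, from 536.48 counts in replicate 1 and 705.29 in replicate 2. Lhx4 (ENSMUSG00000026468.10, chr1:155698031-155751684, minus strand), which shares the early motor neuron role of Lhx3, had 8.13 TPM in replicate 1 and 10.84 TPM in replicate 2. The Lhx4 mean was 9.49 ± 1.92 TPM, from 527 counts in replicate 1 and 712 in replicate 2, a number of counts close to that of Lhx3 spread over a longer transcript.

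Mnx1 (ENSMUSG00000001566.9, chr5:29473034-29478470, minus strand), which holds back the V2 program in motor neurons, was the least abundant member. It had 3.46 TPM in replicate 1 and 6.02 TPM in replicate 2, a mean of 4.74 ± 1.81 TPM, from 129 counts in replicate 1 and 232 in replicate 2, and it ranked 10572nd among protein-coding genes. The order Isl1, Isl2, Lhx3, Lhx4, Mnx1 was the same in both libraries, and no neighbours in it overlapped in range. Each step down that order was between 1.80-fold and 3.0-fold, and Isl1 exceeded Mnx1 24.9-fold in replicate 1 and 18.2-fold in replicate 2. Among all 5 genes replicate 1 was the lower library.

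The proportions within the set varied less than the levels. Of the summed TPM of the 5 genes (141.54 in replicate 1 and 188.3 in replicate 2), Isl1 made up 60.8% in replicate 1 and 58.1% in replicate 2. Isl2 made up 20.2% in replicate 1 and 22.3% in replicate 2, and Mnx1 2.44% in replicate 1 and 3.20% in replicate 2. Lhx3 held 10.8% in replicate 1 and 10.7% in replicate 2, and Lhx4 5.74% in replicate 1 and 5.76% in replicate 2, so these paralogs took nearly the same shares of a total that differed between the pools.

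Within a library, where scaling between libraries cancels, Isl1 exceeded Isl2 by 3.0-fold in replicate 1 and 2.60-fold in replicate 2, a mean log2 TPM ratio of 1.48 ± 0.15 (SD, n = 2). Lhx4 stood at 0.532 of the Lhx3 level in replicate 1 and 0.540 in replicate 2, a mean log2 TPM ratio of -0.90 ± 0.014. The Lhx4 to Lhx3 ratio was thus the steadier of the pair, and it held although both genes were lower in replicate 1.

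**Figure D1:**
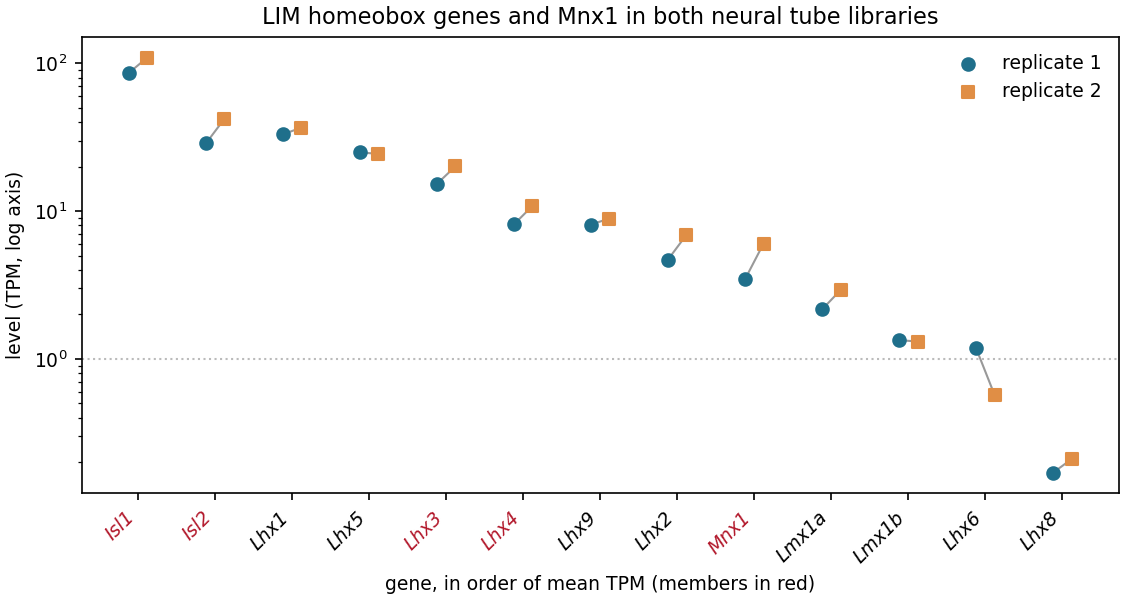
Level in TPM (log axis) of the 12 LIM homeobox genes and Mnx1, in order of mean TPM, with 1 circle for replicate 1 and 1 square for replicate 2. The 5 red names are the motor neuron genes, from Isl1 (86.02 TPM in replicate 1, 109.32 in replicate 2) to Mnx1 (3.46 in replicate 1, 6.02 in replicate 2), each with its replicate 1 point below its replicate 2 point. The dotted line marks 1 TPM.

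Among the 12 LIM homeobox genes of the mouse in these tables, Isl1, Isl2, Lhx3 and Lhx4 together made up 64.6% of the summed TPM in replicate 1 and 69.0% in replicate 2, a mean of 66.8 ± 3.11%. Isl1 was the highest of the 12 in both libraries. The other 8 lay between 0.17 and 36.7 TPM. Lhx1, a factor of several spinal interneuron types and of lateral motor neurons that grow into the dorsal limb, led them at 33.02 TPM in replicate 1 and 36.7 TPM in replicate 2. Isl2 overlapped Lhx1 in range, and Lhx4 overlapped Lhx9, a dorsal interneuron factor at 8.11 TPM in replicate 1 and 8.9 in replicate 2, so these pairs have no settled order. Lhx3 stood below Lhx5, another interneuron factor, at 24.96 TPM in replicate 1 and 24.35 TPM in replicate 2, with no overlap. Of these 8 genes 6 had a mean of 100 or more counts, with a median log2 ratio of -0.08 between the pools, and Lhx2 (-0.45), a dorsal interneuron factor, and Lmx1a (-0.35) were the lowest.

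Isl1 is annotated with 5 transcripts, and its coding pair differs by a stretch within the coding sequence. The coding part of the longer transcript, Isl1-201, has 6 exons of 28, 190, 260, 287, 168 and 114 bases. The shorter coding transcript, Isl1-202, starts coding exon 5 at a site 69 bases further in and so lacks 23 codons (chr13:116301710-116301778, minus strand) downstream of the homeobox. The stretch is shown because it is what separates the transcripts whose shares follow. Capitals mark the 69 bases that only the longer form holds, and 15 bases stand on each side.
Isl1 long form: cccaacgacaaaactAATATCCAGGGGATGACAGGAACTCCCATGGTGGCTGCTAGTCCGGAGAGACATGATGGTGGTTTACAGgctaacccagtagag
Isl1 short form: cccaacgacaaaactgctaacccagtagag
The longer form took 80.24% of Isl1 TPM in replicate 1 and 72.02% in replicate 2, by the deposited transcript shares, a mean of 76.1 ± 5.81%. The shorter form took 18.38% in replicate 1 and 20.66% in replicate 2, from 302.22 expected counts in replicate 1 and 445.45 in replicate 2. Isl1-203, a transcript with a retained intron, had 0% in replicate 1 and 6.91% in replicate 2 (78.2 counts), and the deposited mean length of Isl1 was 2264.75 bases in replicate 1 and 2113.97 bases in replicate 2. The other pair of Isl1 transcripts reached at most 1.39%.

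Lhx3 has a pair of coding transcripts that begin at separate starts and carry different first coding exons, a known feature of the gene in human and mouse that gives proteins with different amino ends. The inner start lies within the gene, and the outer start lies upstream of it. Their first coding parts are shown because reads on them are what can tell the forms apart, with the start codon in capitals (inner, chr2:26206345-26206438, outer, chr2:26208102-26208189, both on the minus strand).
Lhx3 inner start: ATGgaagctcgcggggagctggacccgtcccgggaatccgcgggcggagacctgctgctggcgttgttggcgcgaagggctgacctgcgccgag
Lhx3 outer start: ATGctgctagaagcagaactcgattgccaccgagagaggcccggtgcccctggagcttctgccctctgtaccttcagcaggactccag
The coding part is 94 bases in the inner exon and 88 bases in the outer one. Lhx3-201, from the inner start, led in both libraries with 58.19% of Lhx3 TPM in replicate 1 and 58.46% in replicate 2, a mean of 58.3 ± 0.19%. Lhx3-202, from the outer start, had 16.76% in replicate 1 and 19.48% in replicate 2. A transcript with a retained intron, Lhx3-203, had 22.5% in replicate 1 and 14.92% in replicate 2, and was the exception within the gene at 3.44 TPM in replicate 1 against 3.0 TPM in replicate 2. The 2 coding transcripts of Lhx3 together had 11.45 TPM in replicate 1 and 15.65 TPM in replicate 2, a log2 TPM ratio of -0.45. A gene on the opposite strand, Gm27196, crosses the outer start and shares 3.03% of the 100-base windows of Lhx3. It had 23.19 counts in replicate 1 and 17.51 in replicate 2, and use of strand in the counting is not stated, so the outer form is the less certain of the pair.

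Isl2 was led by Isl2-201, with 78.52% of its TPM in replicate 1 and 78.9% in replicate 2 (mean 78.7 ± 0.27%). Its coding exons from the second on are close to those of Isl1 in size (190, 263, 284, 168 and 114 bases), with 69.7% of aligned coding bases identical. The next transcript, Isl2-202, is annotated as a target of nonsense-mediated decay, lacks coding exon 3, of 263 bases (chr9:55542397-55542659), and took 15.39% in replicate 1 and 14.15% in replicate 2. Counts assigned to it were 110 in replicate 1 and 153.02 in replicate 2, and the other 3 transcripts reached at most 4.98%. An antisense gene, Gm17226, lies inside the Isl2 bounds with 3 counts in each library and shares no 100-base window with it.

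Lhx4 divided its TPM between Lhx4-201, at 63.19% in replicate 1 and 61.68% in replicate 2, and Lhx4-202, at 36.81% in replicate 1 and 38.32% in replicate 2. Lhx4-202 is annotated as an incomplete coding transcript of 928 bases beside the 5514 bases of Lhx4-201, and it held only 8.19% of the Lhx4 counts in replicate 1 and 8.69% in replicate 2, so its share of TPM comes from few reads on a short model. Mnx1 was assigned wholly to Mnx1-202, at 100% in both libraries, although the posterior mean estimate in the same files gave that transcript 80.34% in replicate 1 and 91.69% in replicate 2. Apart from the Lhx3 overlap, no 100-base window of any member occurs in another gene's annotated transcripts, and Lhx3 and Lhx4 coding sequences are 66.7% identical.

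**Figure D2:**
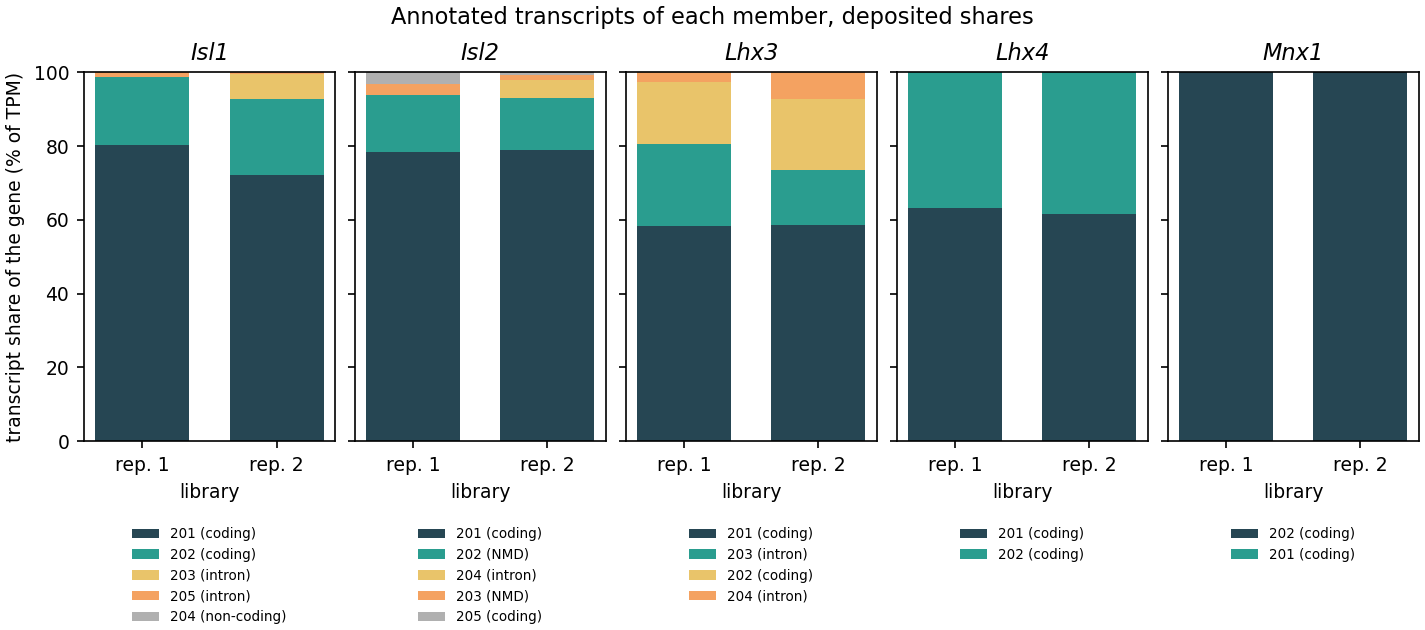
Deposited share of each annotated transcript in its gene (percent of TPM) for Isl1, Isl2, Lhx3, Lhx4 and Mnx1, with 1 stacked bar for each library and colours assigned by order within each gene. The leading transcript took between 58.19% (Lhx3, replicate 1) and 100% (Mnx1), and the segment that moved most was Isl1-201, at 80.24% in replicate 1 and 72.02% in replicate 2.

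Every member was lower in replicate 1, with or without the motif shown here, and a link between motif and ratio was not tested. The stretches before the starts of Isl1, Isl2 and Mnx1 are shown because they hold the same short motif, which those of Lhx3 and Lhx4 do not. They are the 250 bases upstream of a RefSeq start on GRCm38.p6 (Isl1, chr13:116309689-116309938, minus strand, Isl2, chr9:55540899-55541148, plus strand, Mnx1, chr5:29478471-29478720, minus strand), with CCAAT or its reverse complement ATTGG in capitals.
Isl1 promoter: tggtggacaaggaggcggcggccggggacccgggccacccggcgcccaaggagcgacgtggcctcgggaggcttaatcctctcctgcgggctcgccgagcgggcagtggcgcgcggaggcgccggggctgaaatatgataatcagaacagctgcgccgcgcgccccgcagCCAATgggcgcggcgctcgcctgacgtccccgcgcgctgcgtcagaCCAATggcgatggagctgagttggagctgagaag
Isl2 promoter: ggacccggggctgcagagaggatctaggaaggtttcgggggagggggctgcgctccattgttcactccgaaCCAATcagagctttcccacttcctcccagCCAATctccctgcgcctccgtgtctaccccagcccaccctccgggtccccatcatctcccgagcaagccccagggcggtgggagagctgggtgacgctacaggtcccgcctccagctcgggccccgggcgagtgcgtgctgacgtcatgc
Mnx1 promoter: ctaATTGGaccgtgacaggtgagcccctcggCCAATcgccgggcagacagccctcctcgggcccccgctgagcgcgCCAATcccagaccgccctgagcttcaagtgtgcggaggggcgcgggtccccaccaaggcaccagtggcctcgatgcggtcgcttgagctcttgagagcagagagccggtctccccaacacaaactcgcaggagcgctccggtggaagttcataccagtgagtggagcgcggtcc
Isl1 holds 2 such matches, 80 and 34 bases before the start, Isl2 holds 2, at 179 and 150 bases, and Mnx1 holds 3, at 247, 219 and 174 bases. Neither Lhx3 start nor the Lhx4 start has one in its window. Of 32851 RefSeq promoter windows of the same length, 33.8% held at least 1 match and 10.1% at least 2. TATAAA, searched on both strands, was found once before the outer Lhx3 start and before no other member, against 12.4% of all windows. TAAT, the core that homeodomains bind, occurred before Isl1, Mnx1 and the outer Lhx3 start, against 54.9% of all windows, and the first Mnx1 match of CCAAT overlaps one. CANNTG occurred before Isl1, Mnx1 and the inner Lhx3 start, against 66.2% of windows, and GGGCGG before every start but that of Isl1, against 32.7%. These are matches of letters, chosen after the sequences were seen.

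Between the pools, all 5 genes were lower in replicate 1. The ratios below compare expected counts scaled over all genes (TMM), with a 95% exact interval that covers counting error only. In bulk tissue, fewer cells of a type and less RNA per cell cannot be told apart. Mnx1 had the lowest log2 ratio of the 5, -0.75 (interval -1.08 to -0.44). Isl2 came next at -0.48 (-0.61 to -0.36). Lhx4 had -0.34 (-0.51 to -0.18) and Lhx3 -0.31 (-0.47 to -0.14), and Isl1 was nearest to even at -0.20 (-0.27 to -0.13), or -0.35 as a ratio of TPM. All 5 intervals lay below 0, as did those of 18.3% of the 12351 genes with a mean of 100 or more counts (16.7% lay above 0), and the interval of Isl1 overlapped neither that of Isl2 nor that of Mnx1. Over those genes the median log2 ratio was -0.00089 with an SD of 0.18, and the median of the 5 members was -0.34.

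A difference was called where a gene in one library stood below 0.8 of its scaled level in the other. By that line 3 of the 5 members were lower in replicate 1 (Isl2, Lhx4 and Mnx1) beside 3.39% of all genes, and 0 were higher beside 3.37%. Lhx3, at 0.809 of its replicate 2 level, lay just inside that line, and Lhx4, at 0.787, just outside it. Of all genes tested, 0.154% had a ratio as low as that of Mnx1 and 0.980% one as low as that of Isl2. For Lhx4 that share was 2.87%, for Lhx3 3.85% and for Isl1 9.71%. Genes with few counts spread more widely, so the same shares were taken among genes within 2-fold of each member in mean count. There 0.698% of 2865 genes were as low as Mnx1, 0.171% of 5276 as low as Isl2 and 2.90% of 3279 as low as Isl1. Among 4686 genes near Lhx3 and 4682 near Lhx4 the shares were 3.71% and 2.61%. Isl2 was therefore the member farthest from genes of its own depth, and Mnx1, with the lowest ratio, rested on the fewest counts.

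**Figure D3:**
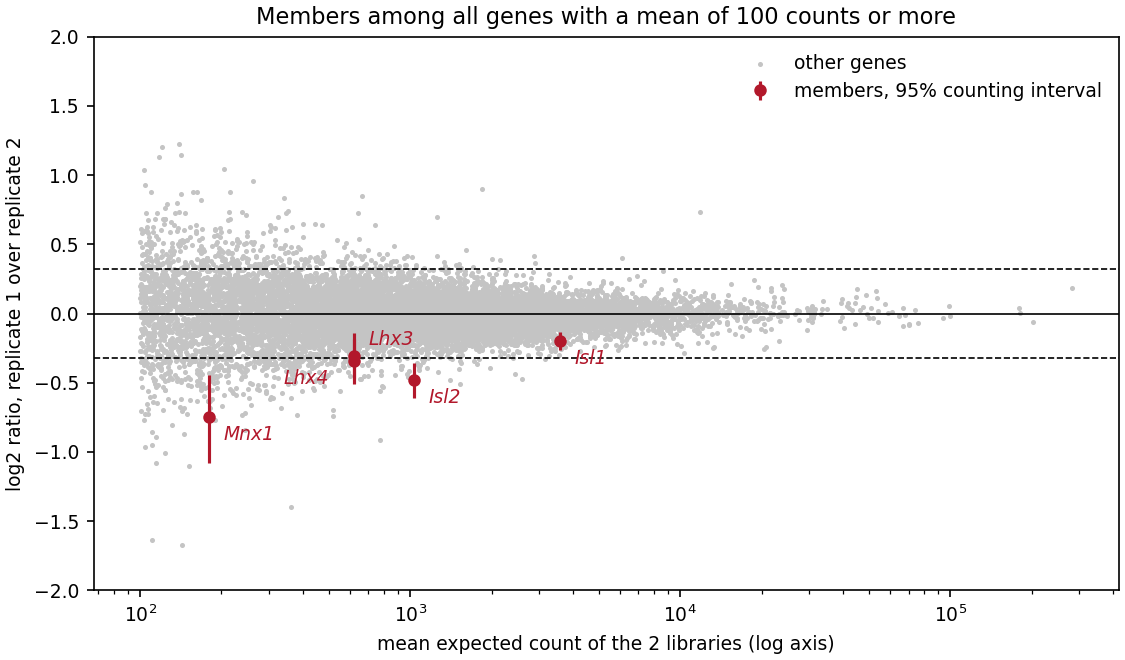
Log2 ratio of replicate 1 over replicate 2 against mean expected count (log axis) for genes with a mean of 100 or more counts, as grey points, and the 5 members in red with 95% counting intervals. The members run from -0.75 (Mnx1) to -0.20 (Isl1), all under the solid line at 0, and the dashed lines mark a ratio of 0.8 in each direction. The plot ends at 2 on each side, and 2 genes lie beyond it.

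The partners and regulators of the LIM code had ratios closer to even in the median. Of 10 genes of the LIM complex, all passed the count minimum, their median log2 ratio was 0.02, and none was called in either direction. Ldb1, the adaptor that Isl1 and Lhx3 bind together, had 77.73 TPM in replicate 1 and 75.41 TPM in replicate 2. Ssbp3, which stabilises Ldb1, had 110.41 TPM in replicate 1 and 114.87 in replicate 2. Lmo4, which competes for Ldb1, was highest in ratio at 0.20, and Lmo3 lowest at -0.15. Of 7 upstream patterning factors, 6 passed the minimum with a median of -0.003. Of these only Nkx2-2, a ventral progenitor factor, was called, at -0.37 (4.3 TPM in replicate 1, 5.25 TPM in replicate 2). Its counting interval ran from -0.76 to 0.0076. Under the minimum, Olig2, a factor of motor neuron progenitors, had 40 counts in replicate 1 and 70 in replicate 2. Its level was 0.98 TPM in replicate 1 and 1.67 TPM in replicate 2 (log2 ratio -0.69, interval -1.32 to -0.14). Irx3, a more dorsal progenitor factor and the highest of the list at 0.32 (interval 0.16 to 0.48), lay just inside the line, with 16.15 TPM in replicate 1 and 13.31 in replicate 2.

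Some genes of the final motor neuron identity were also lower in replicate 1. Of 8 motor neuron terminal genes, 7 passed the minimum, their median log2 ratio was -0.23, and 3 were called lower and 0 higher. Slc18a3, the vesicular acetylcholine transporter and one of the genes that Isl1 and Lhx3 are known to switch on, had 15.8 TPM in replicate 1 and 22.12 TPM in replicate 2 (log2 ratio -0.44). Chat, which makes acetylcholine and shares that locus, had 1.48 TPM in replicate 1 and 2.57 TPM in replicate 2, from 70 counts in replicate 1 and 125 in replicate 2, under the minimum. Prph, an axonal filament also of sensory neurons, had 28.1 TPM in replicate 1 and 38.5 TPM in replicate 2 (log2 ratio -0.41), whereas Ache, the acetylcholine-degrading enzyme, was nearly even at 0.0034. Of 14 column and pool factors, 12 passed with a median of -0.02 and none called, among them Foxp1 of limb-innervating motor neurons (86.92 TPM in replicate 1, 91.7 in replicate 2) and Aldh1a2, the retinoic acid enzyme of the same cells and of mesoderm (68.55 TPM in replicate 1, 85.92 in replicate 2).

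V2 interneurons express Lhx3 and Lhx4 too. Of 7 V2 markers, 5 passed the minimum with a median log2 ratio of -0.01, and 0 were called lower. Sox14, a V2 factor, was called higher at 0.35, with a counting interval from -0.023 to 0.74 that includes 0. The log2 ratios of Lhx3 and Lhx4 were -0.31 and -0.34. Vsx1 stayed under 1 TPM, at 0.70 in replicate 1 and 0.78 in replicate 2.

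Sensory ganglia express Isl1 and Isl2, and most markers of these neurons that passed the minimum were also lower in replicate 1. Of 11 sensory markers, 10 passed, with a median log2 ratio of -0.19, 8 below 0, 3 called lower and 0 higher. Six4 was the highest at 0.20 (interval 0.06 to 0.35). The summed level of the 11 was 180.07 TPM in replicate 1 and 214.21 TPM in replicate 2. Pou4f1, a sensory and dorsal interneuron factor, had 61.42 TPM in replicate 1 and 76.1 TPM in replicate 2, and Prdm12, of pain-sensing neurons and spinal progenitors, was lowest at -0.48. Avil was under 1 TPM, at 0.43 in replicate 1 and 0.63 in replicate 2, and none of the 11 was at 0. The 6 autonomic markers summed to 45.92 TPM in replicate 1 against 51.34 in replicate 2, and the 2 that passed, Th and Tfap2b, had a median of -0.22 with none called. Hand2, which defines sympathetic neurons, stood at 0.06 TPM in replicate 1 and 0.17 in replicate 2. All 10 general neuron markers were lower in replicate 1 too (median -0.14, range -0.25 to -0.04), a range that holds the -0.20 of Isl1 and lies above the ratios of the other 4 members, with a summed level of 2327.45 TPM in replicate 1 against 2708.78 in replicate 2. The part of these other neurons in the Isl1 and Isl2 ratios was not tested. With the scale set so that the general neuron median is 0, an alternative chosen after seeing the data, all 5 members kept a ratio below 0, Isl1 at -0.062 and Isl2 at -0.35, and 2 of 5 were called lower, beside 1.21% of all genes lower and 10.3% higher on that scale. Lhx4 lost its call there, at -0.21.

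Markers of the other tissues that use these genes were absent or low, or had a scaled log2 ratio above 0 where they passed the count minimum. Not all of those ratios were clear of 0. Pdx1, the pancreas factor, and Noto, of the notochord, had 0 counts in both libraries, which allows Pdx1 up to 0.041 TPM and Noto up to 0.171 TPM in replicate 1, and 0.040 and 0.166 TPM in replicate 2 (the level of 3 counts, counting error only). The 9 notochord, floor plate and endoderm markers had a summed level of 35.55 TPM in replicate 1 against 34 in replicate 2. Of the 3 that passed, Krt18 was called higher at 0.33. Sox17 (0.06, interval -0.22 to 0.33) and Krt8 (0.07, interval -0.15 to 0.29) were near even. By TPM Sox17 was slightly lower in replicate 1, at 8.27 against 8.46 in replicate 2. Under the minimum, the notochord factor T had 1.21 TPM in replicate 1 and 1.66 TPM in replicate 2. Its counts were 37 in replicate 1 and 46 in replicate 2 (log2 ratio -0.22, interval -0.89 to 0.43). Also under it, Foxa2 had 3.21 TPM in replicate 1 and 3.2 in replicate 2. Shh had 2.04 TPM in replicate 1 and 1.6 in replicate 2. Of 7 pituitary markers, Six6 had 0 counts in both libraries (limits of 0.044 TPM in replicate 1 and 0.043 TPM in replicate 2). Pou1f1 had 0 TPM in replicate 1 and 0.03 in replicate 2, and Hesx1 0.11 in replicate 1 and 0.05 in replicate 2. Of the 2 pituitary markers that passed, Pitx1, which limb and jaw mesenchyme also express, was called higher at 1.20 (4.03 TPM in replicate 1, 2.05 TPM in replicate 2). Tbx4, Tbx5, Nkx2-5 and Gata4 of heart and limb were between 0.04 and 0.52 TPM, while the limb mesenchyme gene Prrx1 had 30.23 TPM in replicate 1 and 24.24 in replicate 2. Of the 3 heart and limb genes that passed, 2 were called higher.

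The libraries also differed as a whole. Replicate 1 held 27638068 expected counts and replicate 2 held 29166901, with spike-ins at 13.2% of the replicate 1 TPM and 11.8% of the replicate 2 TPM. The pools differed beyond sampling noise, with a chi-square of 6.21 per gene over 12351 genes. Neural progenitor markers had a summed level of 2150.35 TPM in replicate 1 against 2244.41 in replicate 2 (median log2 ratio -0.04, none of 10 called). Skeletal muscle markers, of tissue that is not neural tube, had a summed level of 503.08 TPM in replicate 1 against 419.8 in replicate 2, and all 8 were higher in replicate 1 (median 0.29, 3 called). Erythroid markers had a summed level of 10385 TPM in replicate 1 against 10430.4 in replicate 2 (median 0.04, none called). Whether the tissue mix sets the members' ratios was not tested.

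**Figure D4:**
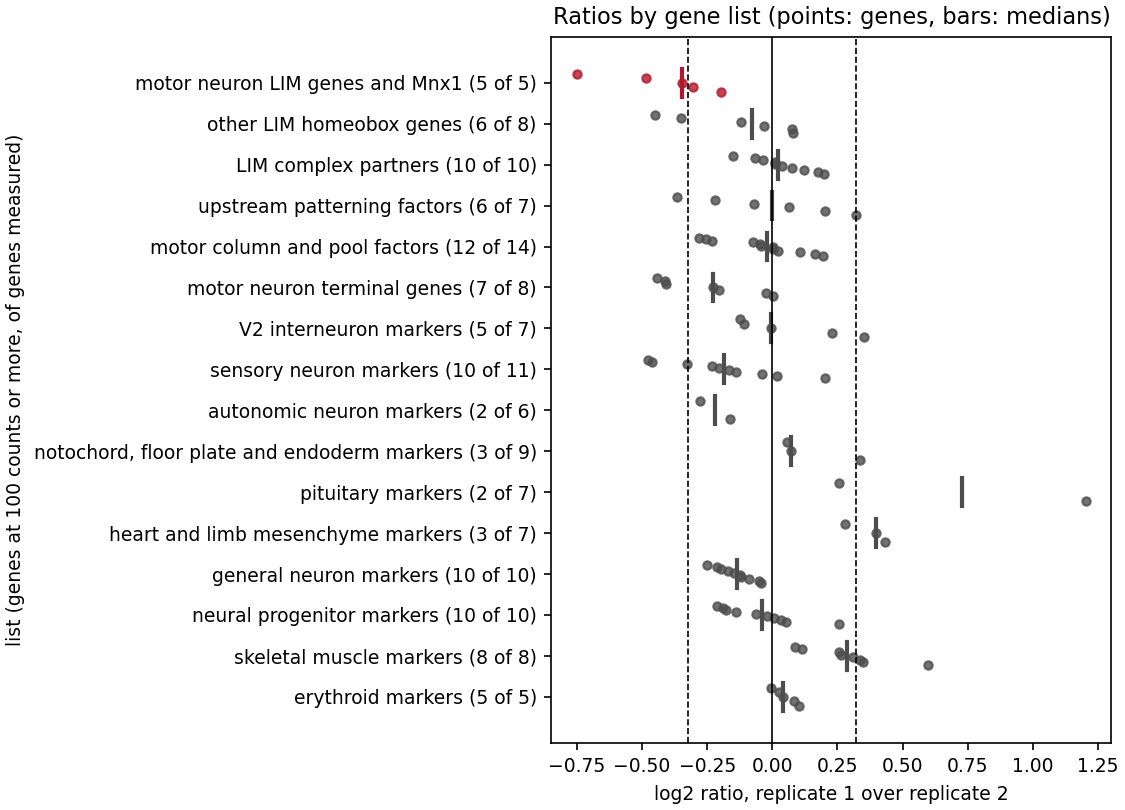
Log2 ratio of replicate 1 over replicate 2 for every gene with a mean of 100 or more counts in the member set and 15 other lists, 1 point a gene, with a bar at each list median and dashed lines at a ratio of 0.8 in each direction. The members (red) have a median of -0.34, the terminal genes -0.23, the sensory markers -0.19, the general neuron markers -0.14 and the LIM complex partners 0.02.

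With 2 libraries a pattern is a single ratio, and the listed genes nearest to the members' median log2 ratio were Lmx1a at -0.35, Tlx3 at -0.33, Nkx2-2 at -0.37, Ret at -0.41 and Aldh1a2 at -0.28. Lmx1a is a roof plate LIM homeobox factor with 2.16 TPM in replicate 1 and 2.92 TPM in replicate 2. Tlx3 is a factor of dorsal excitatory and sensory neurons with 17.44 TPM in replicate 1 and 22.57 in replicate 2, and Ret is a receptor of motor and sensory axons with 4.95 TPM in replicate 1 and 6.85 in replicate 2. The nearness rests on 1 ratio for each gene.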

How the data were processed

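Expected counts (estimated reads per gene and transcript), TPM and the percent share of each transcript were deposited by the authors for both libraries, on mm10 with GENCODE M4 per the file headers and descriptions. No source used here gives the aligner, the quantifier or the use of strand, and the labels name both total RNA-seq and a SmartSeq protocol. Symbols came from GENCODE M21 on GRCm38, matched for 42462 of 43346 genes, with 97 spike-ins and 26248 unnamed, numbered rows set aside.

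Counts were rounded and scaled by TMM in edgeR 4.0.16 (R 4.3.3) over genes with 10 counts in a library, and log2 ratios used a prior count of 2. Intervals are exact Clopper-Pearson at 95%, and the steps were tested on simulated data. DESeq2 1.42.0 size factors, spike-in counts, TPM ratios and other lines for a call were alternatives. Promoter windows are from RefSeq and transcript sequences from GENCODE M21, with Python 3.11.15. The genes, the 15 lists and the tests were chosen with earlier results of these data known. Of each list the text may name the 3 highest genes, the highest and lowest ratio, and markers under 1 TPM in both libraries. All LIM homeobox genes, Chat as a motor neuron marker and the 5 list genes nearest in ratio may also be named. Olig2, T, Foxa2 and Shh are named outside this rule. Some genes that this rule names are left out of the text.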

Additional observations from a re-analysis of the deposited data

How the results depend on the processing

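All 5 ratios stayed below 0 under every scaling tried (TMM, DESeq2 size factors, spike-in counts, TPM ratio, no count minimum, a prior count of 0.5 and the general neuron scale). Scaled by spike-ins the ratios were -0.40 for Isl1, -0.68 for Isl2, -0.51 for Lhx3 and -0.54 for Lhx4, while the median of all genes moved with them, to -0.20. The TPM ratio of Isl1 was -0.35, with the median of all genes at -0.041. TPM is corrected for length, and the deposited Isl1 length was 2264.75 bases in replicate 1 and 2113.97 in replicate 2. The part of that length difference in the Isl1 TPM ratio was not tested. On the general neuron scale, chosen after seeing the data, Isl1 had -0.062, Isl2 -0.35, Lhx3 -0.17, Lhx4 -0.21 and Mnx1 -0.61, with the median of all genes at 0.14. The count of members called lower was 3 by the line of 0.8, 1 at 1.5-fold (0.478% of all genes), and 5 at 1.1-fold (16.6%), with spike-ins (18.9%) and with the TPM ratio (6.04%). It was 2 on the general neuron scale (1.21%), where Lhx4 lost its call. By posterior mean, the leading transcript share was 76.2% for Isl2, 57.0% for Lhx3 and 86.0% for Mnx1. Levels, paralog ratios and the other shares moved by no more than 1 SD of the libraries, and the ratios not given here lay within their counting intervals. Leaving out a library leaves the value of the other one. No paired analysis was possible because there was 1 group. Counting error limits Mnx1 most.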
